A study of Mus musculus with 2 samples.

Results

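The genes described here are 32 markers of blood vessels, of which 21 mark endothelial cells and 11 mark mural cells. They were chosen by symbol, and all 32 were found under their own symbol among the 23284 genes of the authors' deposited table. The table compares 1 library of Ly6Chi macrophages with 1 library of Ly6Clo macrophages. Both were made from hearts of C57BL/6 mice (C57BL/6 J in the treatment label), 3 days after the left anterior descending coronary artery was tied off. Both groups therefore share strain, infarction and day, and per the labels differ only in their level of Ly6C, a membrane-anchored protein found in quantity on classical monocytes and on their recent progeny. The labels give neither the age and number of the animals nor whether animals were pooled, and they name no marker of the sort other than Ly6C.

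The value for each gene is a signed score with no stated unit, given with its rank by size. No label ties its sign to a population, because the codes of the columns per library match no label, so results are given by side of the score. Ly6c2, which encodes the Ly6C antigen of monocytes, scored -1.78, at rank 18, in the authors' deposited table and marks the negative side for orientation. A single library was made of each population, so replicate spread is missing, nothing was tested and no score can be set against an error. The score of a gene does not say how abundant the gene was, so a small score can come from low abundance or from like levels, and these cannot be told apart here. Levels, fold changes and depth were not analysed here. In bulk RNA, fewer cells of a type and less RNA per cell cannot be told apart either.

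Endothelial cells line every vessel. They are held together by VE-cadherin and claudin junctions, answer vascular endothelial growth factors through receptor tyrosine kinases, and owe their identity to ETS and SOX family transcription factors. Mural cells, the pericytes of capillaries and the smooth muscle cells of larger vessels, sit on the outer face of that lining, are recruited by platelet-derived growth factor through its beta receptor, and contract through smooth muscle actin and myosin. In an infarct both populations take part in vessel regrowth, and neither is a macrophage, although some of their markers are also made by monocytes, macrophages, platelets or fibroblasts.

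The endothelial genes lay mainly on the negative side and the mural genes on the positive side. Of 21 endothelial genes, 17 had a negative and 4 a positive score in the authors' deposited table, where 29.6% of all genes were negative, 40.4% positive and 30.0% exactly 0. The median endothelial score was -0.18, with a lowest value of -0.57 and a highest of 0.42, against a median of 0.0051 over all genes other than 0. Of 11 mural genes, 10 were positive, none was negative and 1, Cnn1, was at exactly 0 in the authors' deposited table. The 10 mural genes other than 0 had a median of 0.45, and the mural scores reached 0.89. Counts by side include genes near 0: of those at least 0.1 in size, 15 endothelial genes were negative and 1 positive, and 8 mural genes were positive. The ranges of both groups overlapped, between 0 and 0.42. Members with large scores were few in number. Of the 21 endothelial genes, 1 (4.76%) reached -0.5 or below, where 0.988% of all genes did, and 0 reached 0.5. Of the 11 mural genes, 3 (27.3%) reached 0.5 or above, where 3.77% of all genes did, and 0 reached -0.5. At a size of 0.25, 7 endothelial genes (33.3%) were negative and 1 (4.76%) positive, and 6 mural genes (54.5%) were positive. At that size 4.66% of all genes were negative and 9.9% positive. No member reached 1 in size on either side, where 0.0644% of all genes were negative and 0.709% positive.

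**Figure D1:**
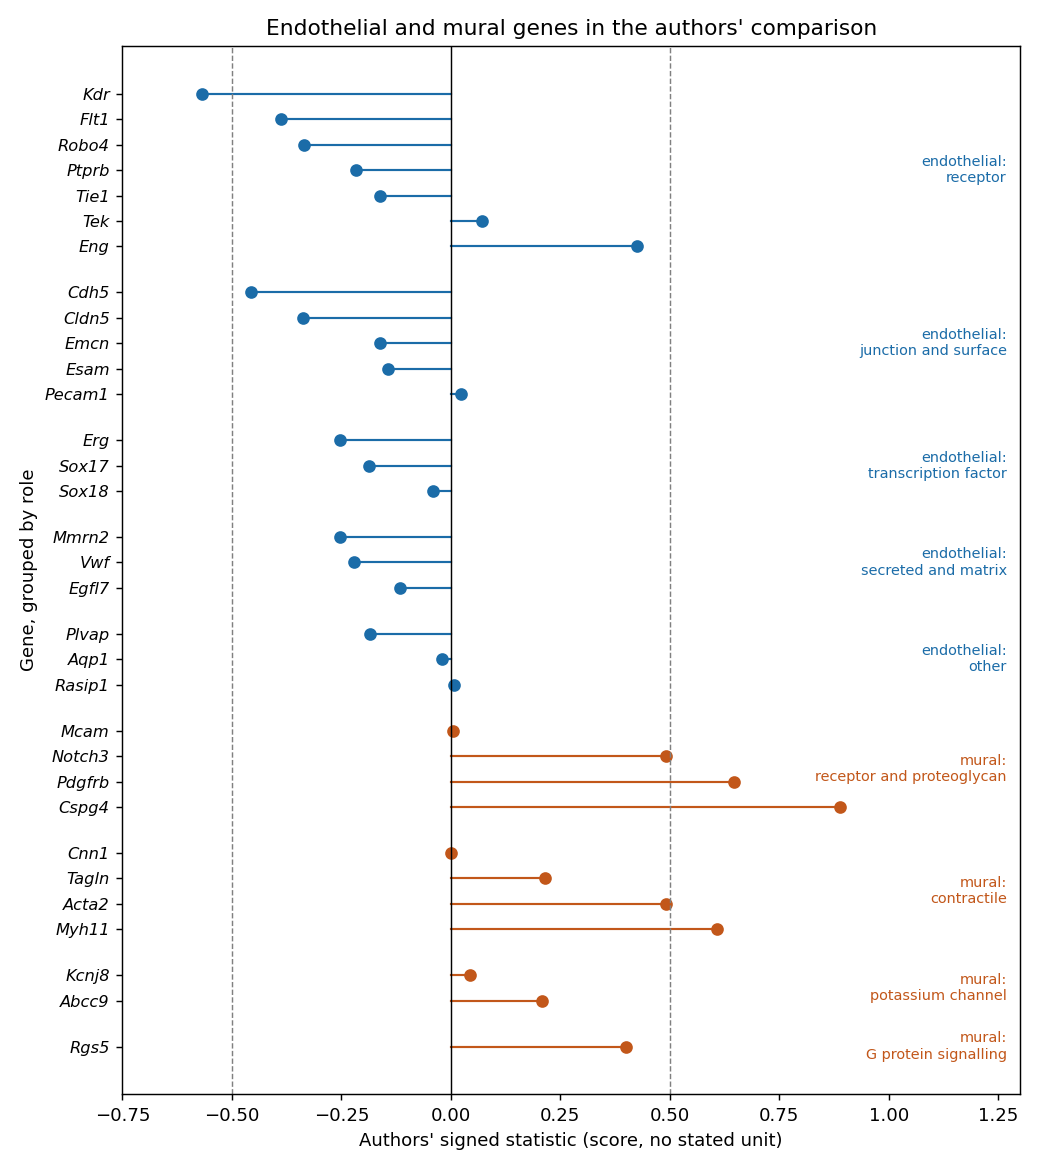
The authors' signed statistic (x axis, a score with no stated unit) for each of the 32 genes (y axis), grouped by role, with endothelial genes in blue and mural genes in orange and dashed lines at -0.5 and 0.5. Endothelial points sit mostly left of 0, down to Kdr at -0.57, and mural points sit at or right of 0, up to Cspg4 at 0.89.

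Promoter sequences of these genes are shown as background on the 2 groups. Known regulators are ETS proteins such as ERG in endothelium and serum response factor in smooth muscle. Whether these factors bear on the side of the score was not tested. The windows are the 250 bases before an annotated start, from RefSeq on GRCm38.p6, which is the assembly of mm10, and were found for 12 endothelial and 8 mural genes. Those printed are the windows of the members furthest from 0, on both sides of the score for the endothelial genes, that contain no exon of the GENCODE annotation. Capitals mark AGGAAG, a single longer form of the ETS motif, read on either strand, so that CTTCCT is its other strand. The shorter core GGAA and other forms of the motif were neither marked nor counted. The Eng window is chr2:32646345-32646594 on the plus strand, the Flt1 window chr5:147726012-147726261 on the minus strand and the Cldn5 window chr16:18776597-18776846 on the plus strand. The Notch3 window is chr17:32166891-32167140 on the minus strand and the Rgs5 window chr1:169655251-169655500 on the plus strand. All are written 5′ to 3′ along the gene.
Eng: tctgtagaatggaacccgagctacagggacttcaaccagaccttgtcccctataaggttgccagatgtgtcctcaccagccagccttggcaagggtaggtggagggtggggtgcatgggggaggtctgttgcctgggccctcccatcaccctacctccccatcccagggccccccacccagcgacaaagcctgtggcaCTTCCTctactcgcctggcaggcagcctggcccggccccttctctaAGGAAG
Flt1: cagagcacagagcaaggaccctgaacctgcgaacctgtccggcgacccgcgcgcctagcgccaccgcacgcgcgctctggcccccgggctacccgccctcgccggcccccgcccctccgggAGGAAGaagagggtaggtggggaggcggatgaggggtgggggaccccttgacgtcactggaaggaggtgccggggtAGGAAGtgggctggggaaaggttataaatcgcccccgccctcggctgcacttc
Cldn5: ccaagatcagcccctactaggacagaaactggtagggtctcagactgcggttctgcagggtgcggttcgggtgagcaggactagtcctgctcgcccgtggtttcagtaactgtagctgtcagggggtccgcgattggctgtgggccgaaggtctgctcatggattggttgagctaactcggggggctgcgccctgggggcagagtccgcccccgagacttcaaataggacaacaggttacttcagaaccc
Notch3: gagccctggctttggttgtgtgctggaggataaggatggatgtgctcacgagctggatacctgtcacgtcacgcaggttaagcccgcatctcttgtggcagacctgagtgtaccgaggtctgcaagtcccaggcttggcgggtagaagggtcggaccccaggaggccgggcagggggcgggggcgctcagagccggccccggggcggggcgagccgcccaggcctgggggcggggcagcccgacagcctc
Rgs5: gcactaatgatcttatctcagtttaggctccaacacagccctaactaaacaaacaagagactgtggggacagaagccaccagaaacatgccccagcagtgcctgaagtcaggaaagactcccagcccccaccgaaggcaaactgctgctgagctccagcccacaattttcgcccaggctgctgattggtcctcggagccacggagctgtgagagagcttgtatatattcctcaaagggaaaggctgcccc

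AGGAAG stood in 10 of 16 endothelial windows, or 62.5%, and in 0 of 8 mural windows, against 29.5% of the 32851 windows of all genes. Many windows overlap annotated exons. Among those without an exon base it stood in 4 of 8 endothelial and 0 of 3 mural windows, against 30.3% of 18038 windows of all genes. Counted by gene over all windows, since Egfl7 and Erg each have more than 1 start, at least 1 window held it for 9 of 12 endothelial genes and for 32.3% of all 27025 genes. In the Flt1 window AGGAAG began 129 and 53 bases before the start used, and in the Eng window 52 and 6 bases before its start. Some windows, among them those of Flt1 and Kdr, lie inside the RefSeq span of the gene, so their starts are not the outermost ones. Flt1 and Eng both held AGGAAG, although their scores lay on opposite sides (-0.39 for Flt1, 0.42 for Eng, authors' deposited table), and Cldn5, at -0.34, did not. The CArG box, the motif bound by serum response factor, was searched on both strands. Only its strict form CCWWWWWWGG, where W is A or T, was counted, and forms with a mismatch were not. It was in none of the endothelial or mural windows, and in 1.47% of all windows. No window was found for the smooth muscle genes Myh11 and Tagln. The Acta2 window had 217 bases in annotated exons and the Cnn1 window 37. With so rare a motif and so few mural windows, this search cannot decide whether smooth muscle promoters carry it. Matches to either motif describe the letters of the windows, and binding was not measured.

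The endothelial receptors held the most negative and the most positive endothelial score. Kdr encodes the main signalling receptor for VEGF-A and is a protein-coding gene on chromosome 5 from 75932827 to 75979072 on mm10. It scored -0.57, at rank 855, in the authors' deposited table, within the top 3.67% of ranks. Flt1, the related receptor that binds VEGF-A tightly and can act as a decoy, spans 147561604 to 147726438 of the same chromosome, and the authors' deposited table put it at -0.39, rank 1729. Both receptors of VEGF-A were thus on the negative side. Robo4, a receptor that stabilises the vessel wall, had -0.34 in the authors' deposited table. The angiopoietin receptor gene Tek and its partner Tie1 had scores of 0.07 for Tek and -0.16 for Tie1 in the authors' deposited table. Ptprb, a phosphatase that acts on the angiopoietin receptor and on VE-cadherin, had -0.22 there. Eng, which encodes the TGF-beta co-receptor endoglin (chromosome 2, 32646595 to 32682669), was the exception at 0.42, rank 1502, in the authors' deposited table. Macrophages also express Eng, and it was the only endothelial gene above 0.1.

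Junction genes gave 4 negative scores of 5. Cdh5, which encodes VE-cadherin (chromosome 8, 104101613 to 104144504), scored -0.46, at rank 1329, in the authors' deposited table. Cldn5, the claudin that seals endothelial tight junctions, scored -0.34, at rank 2195, in the authors' deposited table. Both genes are used as markers of endothelium rather than of leukocytes. The sialomucin gene Emcn had -0.16 and the adhesion molecule gene Esam -0.14 in the authors' deposited table. Pecam1, an adhesion molecule of endothelium that monocytes, macrophages and platelets carry as well, had 0.022 in the authors' deposited table and rank 14019, so the most widely used endothelial marker of the list was close to 0.

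Scores of the 3 transcription factor genes and the 3 secreted or matrix genes were negative, with Sox18 near 0. Erg, the ETS factor that maintains endothelial identity, had -0.25, Sox17, a factor of arterial endothelium, -0.19 and its relative Sox18 -0.04 in the authors' deposited table. Among secreted products, Mmrn2, an endothelial matrix protein, had -0.25, Vwf, the clotting factor carrier stored by endothelium and platelets, -0.22 and Egfl7, a matrix-bound endothelial factor, -0.12 in the authors' deposited table. These scores spanned a narrow range, and none reached -0.5. Plvap, which forms the diaphragms of fenestrae and caveolae, had -0.18, the water channel gene Aqp1 -0.021 and Rasip1, a regulator of vessel lumen formation, 0.0062 in the authors' deposited table.

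Some of the endothelial genes are also expressed by other blood cells. The 9 genes flagged by hand as such, Pecam1, Eng, Esam, Flt1, Tek, Erg, Vwf, Egfl7 and Aqp1, had 6 negative scores. Their median was -0.12 in the authors' deposited table. Of the other 12 endothelial genes 11 were negative, and their median was -0.20. The remaining gene of the 12, Rasip1, was near 0. The difference between these medians was not tested.

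The largest scores by size among the members were those of Cspg4, Pdgfrb and Myh11, from the mural receptors and the contractile genes, while Mcam and Cnn1 of the same roles were near or at 0. Cspg4, which encodes the pericyte proteoglycan NG2 (chromosome 9, 56865104 to 56899870), scored 0.89, at rank 271, in the authors' deposited table, within the top 1.16% of ranks. Pdgfrb, the receptor through which pericytes are recruited, spans 61045127 to 61085067 of chromosome 18, and the authors' deposited table put it at 0.65, rank 620. Notch3, the Notch receptor of arterial smooth muscle, had 0.49 and rank 1159 there. Mcam, an adhesion molecule of pericytes and also of endothelium, stood near 0 at 0.0056 in the authors' deposited table. Myh11, the smooth muscle myosin heavy chain, spans 14194527 to 14292188 of chromosome 16 and stood at 0.61, rank 735.5, in the authors' deposited table. Acta2, smooth muscle actin, which myofibroblasts also make, had 0.49, and Tagln, the actin-binding protein transgelin, had 0.22 in the authors' deposited table. Notch3 and Acta2 lay just under 0.5, so the count of 3 mural genes at or above that size would be 5 with a slightly lower threshold. Cnn1, the calponin of differentiated smooth muscle, was listed at exactly 0, as were 6982 genes in all.

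The pericyte signalling genes had smaller scores than Cspg4, Pdgfrb and Myh11. Rgs5, a regulator of G protein signalling that marks pericytes, scored 0.40, at rank 1649.5, in the authors' deposited table. Abcc9 and Kcnj8, which encode the regulatory and the pore subunit of the vascular ATP-sensitive potassium channel, had 0.21 and 0.04 there, and the score of Kcnj8 was among those near 0. These subunit genes are neighbours, 16.2 kb apart on chromosome 6. Among the other members only Robo4 and Esam, 114 kb apart on chromosome 9, lay within 1 Mb of each other, and both were negative. Kdr lies 735 kb from Pdgfra, a related receptor tyrosine kinase gene of fibroblasts, on chromosome 5, and the scores were -0.57 and 0.92 in the authors' deposited table.

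**Figure D2:**
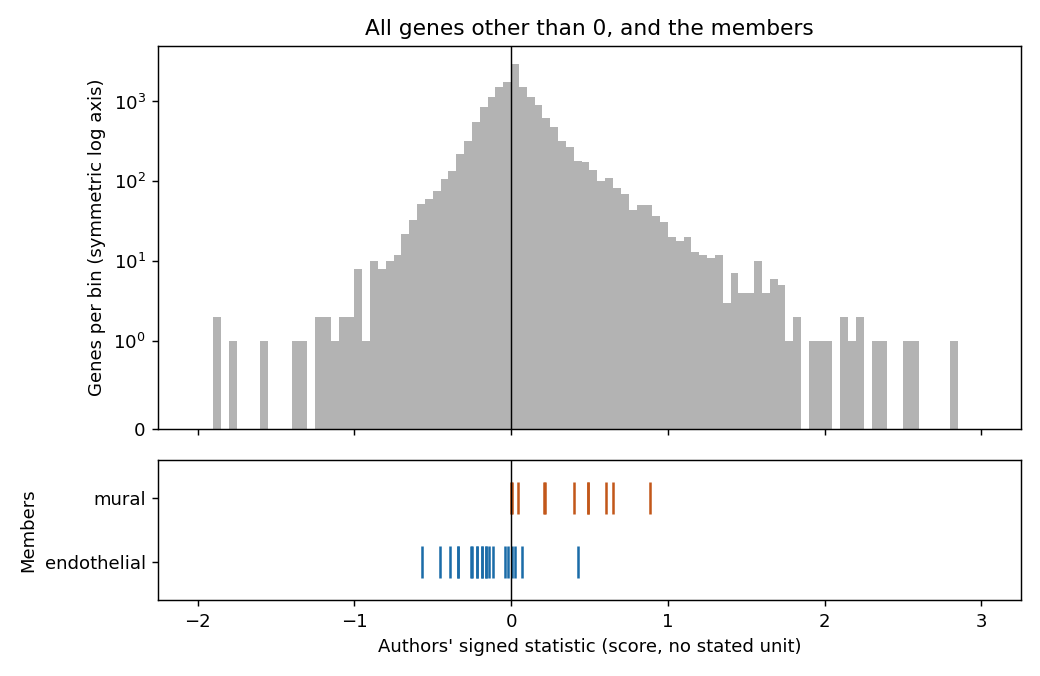
Upper panel: number of genes (y axis, symmetric log) in each bin of the authors' signed statistic (x axis, a score with no stated unit), for all genes other than 0. Lower panel: a tick for each of the 21 endothelial and 11 mural genes on the same axis, which all lie between -0.57 and 0.89. The range of all genes is -1.89 to 2.84.

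Set in the whole table, the members lay inside the extremes of the range, as the plot of all genes shows. By rank some were still high, with Cspg4 in the top 1.16% and Kdr in the top 3.67%. Many low scores are shared exactly by several genes: 15 of the 32 members had the same score as at least 1 other gene. Sox18 shared its score with a set of 42 genes and Kcnj8 with a set of 80, both counts including the member itself, whereas Kdr, Cdh5, Cspg4 and Pdgfrb each had a score of their own. The rank of a gene with a shared score, such as Myh11 or Rgs5, is the average over the genes that share it.

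Further mural genes were mostly positive, and further endothelial genes divided between the sides. Of 15 further smooth muscle and pericyte genes, 13 were positive, 1 negative and 1 at 0 in the authors' deposited table, with a median of 0.38 over those other than 0. Cald1, an actin-binding protein of contractile cells, had 0.77, Tpm2, a muscle tropomyosin, 0.67 and Mylk, the myosin light chain kinase, 0.64 in the authors' deposited table. Of 20 further endothelial genes, 11 were negative, 8 positive and 1 at 0, with a median of -0.10 in the authors' deposited table. Selp, a selectin of endothelium and platelets, had 0.66, Cd93, a C-type lectin-like receptor of endothelium and myeloid cells, -0.64 and Klf2, a factor induced by blood flow and also made by leukocytes, 0.53 in the authors' deposited table. Of the 5 lymphatic endothelial genes, 3 were positive and 2 negative, but the positive ones included Reln at 2.42e-06, the smallest positive score of the authors' deposited table, shared by 841 genes. Hey2, Gja4, Myocd and Gp1bb, each counted as positive in its list, had that same score in the authors' deposited table, and no member did. The largest lymphatic scores were Pdpn, podoplanin, at -1.02 and Lyve1, a hyaluronan receptor shared with resident macrophages, at 0.88 in the authors' deposited table. Flt4, the lymphatic VEGF receptor, had -0.14 in the authors' deposited table.

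Ligands of these receptors did not share a side. Of 16 angiogenic ligand genes, 10 were positive, 5 negative and 1 at 0 in the authors' deposited table, with a median of 0.05. Pdgfb, the ligand of the mural receptor encoded by Pdgfrb, had the largest score, 1.35, at rank 67 of the authors' deposited table. Vegfc, a ligand of the lymphatic receptor, had 0.59, and the Notch ligand gene Jag1 had -0.57 in the authors' deposited table. The 14 other vascular receptor, Notch and BMP genes held 5 positive and 9 negative scores, with a median of -0.10. Nrp1, the VEGF co-receptor neuropilin, had -0.47, Heyl, a Notch target, 0.45 and Hey1, a related Notch target, -0.44 in the authors' deposited table. None of these 14 reached 0.5 in size.

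**Figure D3:**
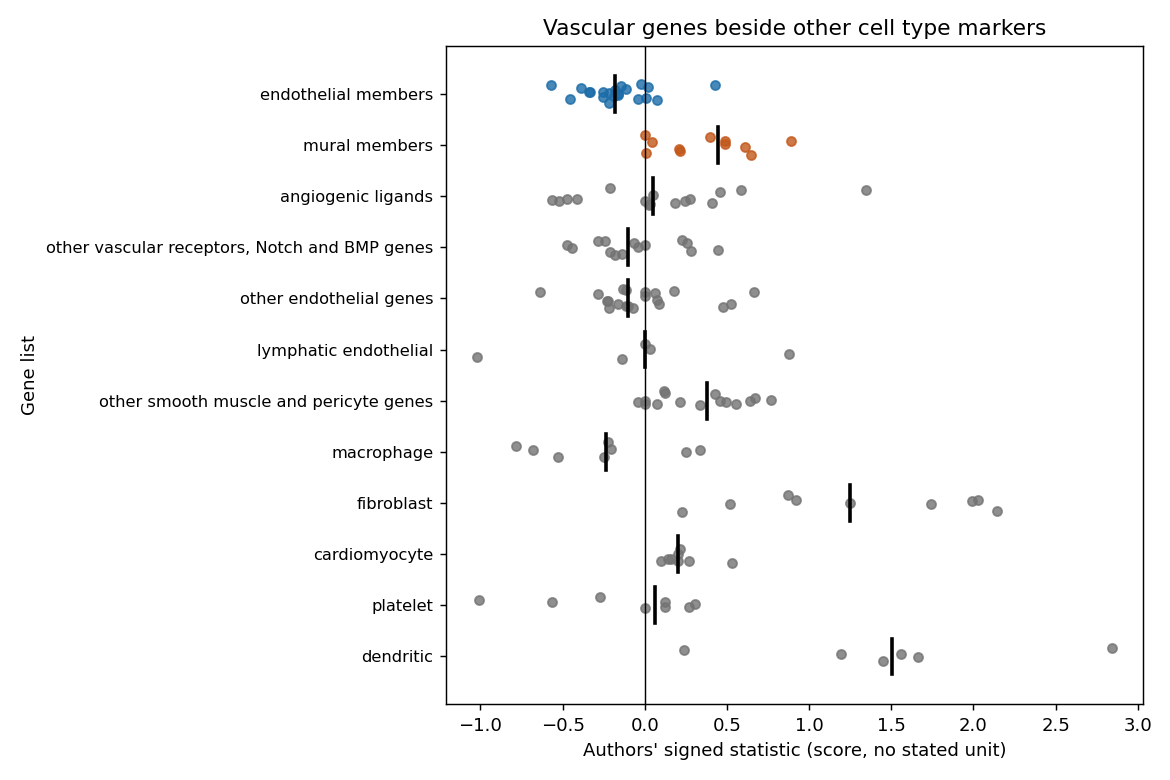
The authors' signed statistic (x axis, a score with no stated unit) for the members of each gene list (y axis), with 1 point per gene and a black bar at the median of genes other than 0. The mural median of 0.45 lies on the side of the fibroblast median, 1.25, and the endothelial median of -0.18 on the side of the macrophage median, -0.23.

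Markers of other cells lay on both sides. All 9 fibroblast genes were positive in the authors' deposited table, from 0.22 to 2.14, with a median of 1.25, and were thus on the side of the mural genes. Col1a1, Col3a1 and Col1a2, the fibrillar collagens, had 2.14, 2.03 and 1.99 in the authors' deposited table, more than the score of any mural gene. Fibroblasts and myofibroblasts also express Acta2, Tagln and Pdgfrb, and the part of fibroblast RNA in the mural scores was not tested. The 7 mural genes not flagged by hand as also expressed by fibroblasts or other cells had 6 positive scores and 1 at 0. Their median over those other than 0 was 0.45 in the authors' deposited table. The flags do not show that fibroblasts lack these 7 genes. All 8 cardiomyocyte genes were positive as well, from 0.10 to 0.53, with a median of 0.20, led by Tnnt2 at 0.53, Actc1 at 0.27 and Ryr2 at 0.21 in the authors' deposited table. All 6 dendritic cell genes were positive, with a median of 1.50, led by Ccr7 at 2.84, Cd209a at 1.66 and Flt3 at 1.56 in the authors' deposited table.

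Of the 8 macrophage genes, 6 were negative and 2 positive, with a median of -0.23 and a range from -0.79 to 0.34 in the authors' deposited table. Fcgr1, an Fc receptor, had -0.79, Cd68, a lysosomal glycoprotein, -0.68 and Lyz2, lysozyme, -0.53 there. The 2 positive macrophage genes were C1qa at 0.34 and Csf1r at 0.25. Most endothelial genes lay on the side of the 6 negative ones. Platelets share Vwf, Pecam1 and Esam with endothelium, and the 8 platelet genes split into 5 positive and 3 negative scores around a median of 0.06 in the authors' deposited table. Their largest scores were -1.01 for Ppbp, a platelet chemokine, -0.56 for Pf4, another platelet chemokine, and 0.31 for Clec1b, the podoplanin receptor, in the authors' deposited table. The part of macrophage or platelet RNA in the endothelial scores was not tested.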

How the data were processed

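RNA from 1 library of Ly6Chi and 1 library of Ly6Clo macrophages was sequenced. The submitters' processing notes name CASAVA 1.8.2, TopHat and mm10. How reads were counted, with which annotation and strand setting, and how the score was computed is not given in the sources used here. A single table was deposited by the authors, with a gene symbol, values for each library, a signed score per gene and a rank by its size. The rank was recomputed from the score to within 1e-06 for 23284 of 23284 genes. Codes of 2 columns of per-library values match no sample label, so these columns stayed unused. Scaled counts and ratios were therefore not computed, and no test was possible.

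The genes and lists were chosen with earlier results of these data known. Named genes are the 32 members, up to 3 genes of each other list by size of score, and Ly6c2. Pdgfra, Reln, Hey2, Gja4, Myocd, Gp1bb, C1qa and Csf1r were added after their values were seen. Symbols were matched directly or through a single synonym to RefSeq GRCm38.p6, which gave coordinates and promoters. Counts by side, medians over genes other than 0 and sizes of at least 0.5 were computed. Alternatives are in the closing section. The functions were tested on simulated data. Software was pandas 2.3.3 and NumPy 2.4.6 under Python 3.11.15, with SciPy 1.17.1 for intervals and Matplotlib 3.10.9 for plots.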

Additional observations from a re-analysis of the deposited data

How the results depend on the processing

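No paired analysis was possible because only 1 library was made of either population, and none can be left out. The planned pseudocount, scaling and filter alternatives require per-library values and were not run. Of the 5 alternatives run for each group, 1 took the mean over members and the others the median. Across them the endothelial value lay between -0.22 and -0.17, the latter being the mean, and the mural value between 0.39 and 0.49. These alternatives reuse the same genes and the same 2 libraries, so they say nothing of replicate error. Counts fell where an alternative drops members. With scores under 0.1 in size left out, 15 endothelial genes were negative and 1 positive. Without genes flagged by hand as also expressed by other cells, 11 endothelial genes were negative and 1 positive, and 6 mural genes were positive. Scores centred on the median of all genes other than 0, an alternative chosen after seeing the data, put 1 mural gene, Cnn1, on the negative side. Restricting promoters to windows without exon bases, also chosen after seeing the data, lowered the endothelial share with AGGAAG from 62.5% to 4 of 8 windows. At a size of 1, 0 endothelial genes were negative and 0 mural genes positive. At a size of 0.25, 7 endothelial genes were negative and 1 positive, and 6 mural genes were positive. Depth behind each score is unknown, and counts by side include genes near 0, whose sign alone is not interpreted.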
